A study of Mus musculus with 187 samples.

Results

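Genes of the major histocompatibility complex (MHC) and of antigen presentation were followed in heart RNA from the Hybrid Mouse Diversity Panel (HMDP), a set of inbred and recombinant inbred mouse strains. The members were every gene whose symbol begins with H2-, the prefix of the mouse MHC, together with B2m, Tap1, Tap2, Tapbp, Psmb8, Psmb9, Psmb10, Cd74, Ciita and Nlrc5. They numbered 55 of the 36558 genes in the deposited table, 45 by prefix and 10 by symbol. By symbol, 40 belonged to class I or its assembly and proteasome machinery and 14 to class II. The remaining one, H2-Ke6, is an enzyme gene inside the complex and was kept apart from both classes. In the annotation, 50 members lay on chromosome 17 and 11 were pseudogenes, 4 of them of the polymorphic kind, meaning that some strains carry an intact copy.

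The series held heart libraries of 98 males and 89 females. Every mouse had eaten chow for 8 weeks and then the high-fat and high-sucrose diet for another 8 weeks until hearts were taken, at 16 weeks of age, so diet could not be compared. A recombinant inbred (RI) strain is derived from intercrosses of a pair of parental strains and carries a fixed mosaic of their genomes. BXD strains (C57BL/6J and DBA/2J parents) gave 79 libraries of 45 strains, AXB/BXA strains (A/J and C57BL/6J) 33 of 20, CXB strains (BALB/cJ and C57BL/6J) 12 of 6, and BXH strains (C57BL/6J and C3H/HeJ) 8 of 6. The other inbred strains, with the 5 parental strains among them, gave 55 libraries of 29 strains. Both sexes were present for 78 strains, 18 had males only and 10 females only. Most combinations of strain and sex had 1 library, so that p-values here rest on the spread between single libraries, and nothing in the labels says whether the 3 repeated strain and sex combinations came from separate mice. Each such pair differed by more than sampling of reads allows (chi-square divided by the number of genes, 14.4 to 130), as repeat libraries of 1 mouse might also, and both were kept as samples because the labels list them separately.

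Library totals ran from 28.99 to 80.44 M estimated counts, with a median of 45.38 M. Levels are given in CPM, counts scaled to a common library size with TMM factors, and, where genes are compared with each other, in TPM, which divides by transcript length. The summed cardiomyocyte markers (Myh6, Tnnt2, Tnni3, Actc1, Myl2 and Ryr2) lay between 32909 and 71430 CPM in every library. In bulk heart, more cells of a type and more RNA per cell cannot be told apart.

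Class I molecules display peptides from inside the cell to cytotoxic T cells. Their heavy chains (H2-K1 and H2-D1 in C57BL/6J, with the less polymorphic Q, T and M genes) pair with beta-2 microglobulin, the product of B2m. Psmb8, Psmb9 and Psmb10 encode the catalytic subunits of the immunoproteasome that cuts the peptides, Tap1 and Tap2 the transporter that carries them into the endoplasmic reticulum, and Tapbp the tapasin that loads them. Class II molecules (H2-Aa with H2-Ab1, and the E alpha chain with H2-Eb1) display peptides from engulfed material to helper T cells and are carried mainly by macrophages, dendritic cells and B cells. The product of Cd74, the invariant chain, guards the class II groove until H2-DM exchanges it for peptide. Nlrc5 and Ciita encode the transactivators of the class I and class II promoters.

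The RefSeq promoter windows of 4 members (GRCm38.p6, from 250 bases before to 50 after the start of the gene) are shown as examples that hold each of the motifs searched, in class I (B2m and H2-K1) and class II (H2-Aa and H2-Eb1). Capitals mark matches to the motifs searched on both strands: the ISRE core GAAANNGAA, bound by interferon-responsive factors, the kappa B core GGGANTCCC, the X box core AGNAACNG and the Y box TGATTGG, the last pair being elements of MHC promoters. The windows are B2m at chr2:122147437-122147736 on the plus strand, H2-K1 at chr17:34000298-34000597 on the minus strand, H2-Aa at chr17:34287774-34288073 on the minus strand and H2-Eb1 at chr17:34305617-34305916 on the plus strand.
B2m: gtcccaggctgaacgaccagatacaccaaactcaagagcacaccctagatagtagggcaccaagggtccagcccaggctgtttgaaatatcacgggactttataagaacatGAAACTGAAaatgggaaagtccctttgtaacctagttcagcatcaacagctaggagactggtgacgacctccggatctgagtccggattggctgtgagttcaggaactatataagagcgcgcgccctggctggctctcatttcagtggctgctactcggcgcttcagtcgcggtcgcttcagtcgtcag
H2-K1: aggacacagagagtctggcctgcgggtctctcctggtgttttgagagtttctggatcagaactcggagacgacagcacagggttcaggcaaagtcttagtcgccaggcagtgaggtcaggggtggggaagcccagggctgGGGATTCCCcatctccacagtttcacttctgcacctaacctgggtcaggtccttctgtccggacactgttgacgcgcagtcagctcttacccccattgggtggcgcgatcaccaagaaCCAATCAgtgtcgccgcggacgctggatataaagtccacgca
H2-Aa: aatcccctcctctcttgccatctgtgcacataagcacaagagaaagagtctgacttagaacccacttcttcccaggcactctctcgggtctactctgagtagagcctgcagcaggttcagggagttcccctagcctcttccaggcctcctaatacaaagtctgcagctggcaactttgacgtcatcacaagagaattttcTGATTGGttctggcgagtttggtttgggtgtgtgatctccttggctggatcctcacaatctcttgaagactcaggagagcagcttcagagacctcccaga
H2-Eb1: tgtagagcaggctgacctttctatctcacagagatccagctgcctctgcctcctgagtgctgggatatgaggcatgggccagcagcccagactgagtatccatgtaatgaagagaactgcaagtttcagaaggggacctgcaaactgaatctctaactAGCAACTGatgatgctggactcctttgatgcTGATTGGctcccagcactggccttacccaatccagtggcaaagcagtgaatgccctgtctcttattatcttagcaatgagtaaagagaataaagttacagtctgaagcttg

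Promoter windows were matched for 38 members, 29 of class I, 8 of class II and H2-Ke6. The Y box was present in 25 of the 38 (65.8%), 18 of 29 in class I and 7 of 8 in class II, where 7.82% of all 32851 promoter windows held it. An X box core together with a Y box was present in 4 of 8 class II windows and 1 of 29 class I windows, against 1.33% of all windows. The kappa B core was found in 4 of the 29 class I windows (0.767% of all windows) and in 0 of the 8 class II windows. The ISRE core in the letter order searched was found in 3 of the 38 (8.56% of all windows), and other forms of this element were not searched. A match describes these letters only, and in other strains the sequence may differ.

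The level of each member was measured against a C57BL/6J transcriptome, which limits what a difference between strains can mean for polymorphic genes, since reads carrying another allele may be lost or given to a similar gene. The share of a member's 31-base words that also occurred in another gene of the GENCODE M21 transcripts measures likeness between genes of the reference only. It does not measure how many reads of another allele are lost. It was 0% for B2m and H2-Ea-ps, 0.267% for H2-Ab1, 0.911% for H2-Aa, 1.06% for H2-Eb1 and 1.41% for Cd74. It was 22.8% for H2-K1 and 26.9% for H2-D1, and rose to 53% for H2-Q4, 51.8% for H2-Q6, 57.8% for H2-Q5, 64.2% for H2-T10 and 67.4% for H2-T22. In class II, it reached 36.6% for H2-DMb2 and 31.4% for H2-DMb1, mostly shared between the pair, and was 9.23% for H2-DMa. H2-Ke6 shared 76.1% of its words with the overlapping gene model Gm20427. Tap1 and Psmb9 overlap head to head on opposite strands and shared under 5% of their words (4.09% and 4.79%). Levels of the Q and T genes and of H2-DMb1 and H2-DMb2 are therefore uncertain as to which gene the reads came from. Levels of every H2 gene outside C57BL/6J are uncertain as to how many reads of the other allele were matched.

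B2m and the heavy chain genes H2-K1 and H2-D1 had the highest levels. By median TPM over all libraries, B2m stood at 263 and was followed by H2-K1 at 122, H2-D1 at 85.6 and Cd74 at 56.7. H2-Ke6 had 48.8 TPM, Tapbp 31.5, Psmb10 27.6, H2-Aa 19.4, H2-Eb1 18.9, H2-Ab1 17.7, Tap2 13.7, Psmb8 11.5, Psmb9 6.58 and Tap1 4.81. The transactivators were low, with 1.54 TPM for Nlrc5 and 0.509 TPM for Ciita. The ranges of neighbouring genes overlapped widely across libraries. Summed in CPM, the 40 class I members took a median of 702 (303 to 4390) and the 14 class II members 122.7 (24.3 to 1092).

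Across the libraries, levels spanned a wide range. B2m (ENSMUSG00000060802, chromosome 2, 122147686 to 122153083) had 68.1 CPM in the 129X1/SvJ male, a median of 188 CPM and 1335 CPM in the BXD73/RwwJ female. H2-K1 (ENSMUSG00000061232, chromosome 17, 33996017 to 34000347) ran from 21.5 CPM in the NZW/LacJ male over a median of 87.7 to 561 CPM in the BXD73/RwwJ female. H2-D1 (ENSMUSG00000073411, 35262730 to 35267499) ran from 32.2 CPM in the CBA/J female over a median of 136.1 to 835 CPM. In class II, H2-Eb1 (ENSMUSG00000060586, 34305867 to 34316674) ran from 1.04 CPM in the SWR/J female over 16.4 to 155.8 CPM, and H2-Aa (ENSMUSG00000036594, 34282744 to 34287823) from 2.88 CPM in the SM/J female over 17.8 to 141.6 CPM. Cd74 (ENSMUSG00000024610) ran from 9.94 CPM in the SM/J female over 58.4 to 404 CPM. The BXD73/RwwJ female held the highest value of all these genes.

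At the other end, 19 members did not pass the filter on low counts. Among them were H2-Oa, H2-Eb2, H2-Pa and H2-Pb of class II, and H2-Q3, H2-T3 and the M genes other than H2-M3 in class I. The highest level of any of them in any library was 0.917 CPM, for the pseudogene H2-M6-ps, and H2-M1 had no count in any library. The M10 genes are known from the vomeronasal organ. That left 36 members tested, 25 of class I, 10 of class II and H2-Ke6. Of these, 34 are described by their values below, the exceptions being H2-Ob and H2-Q1, with means under 1 CPM, of which H2-Q1 is given after its values were seen.

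**Figure D1:**
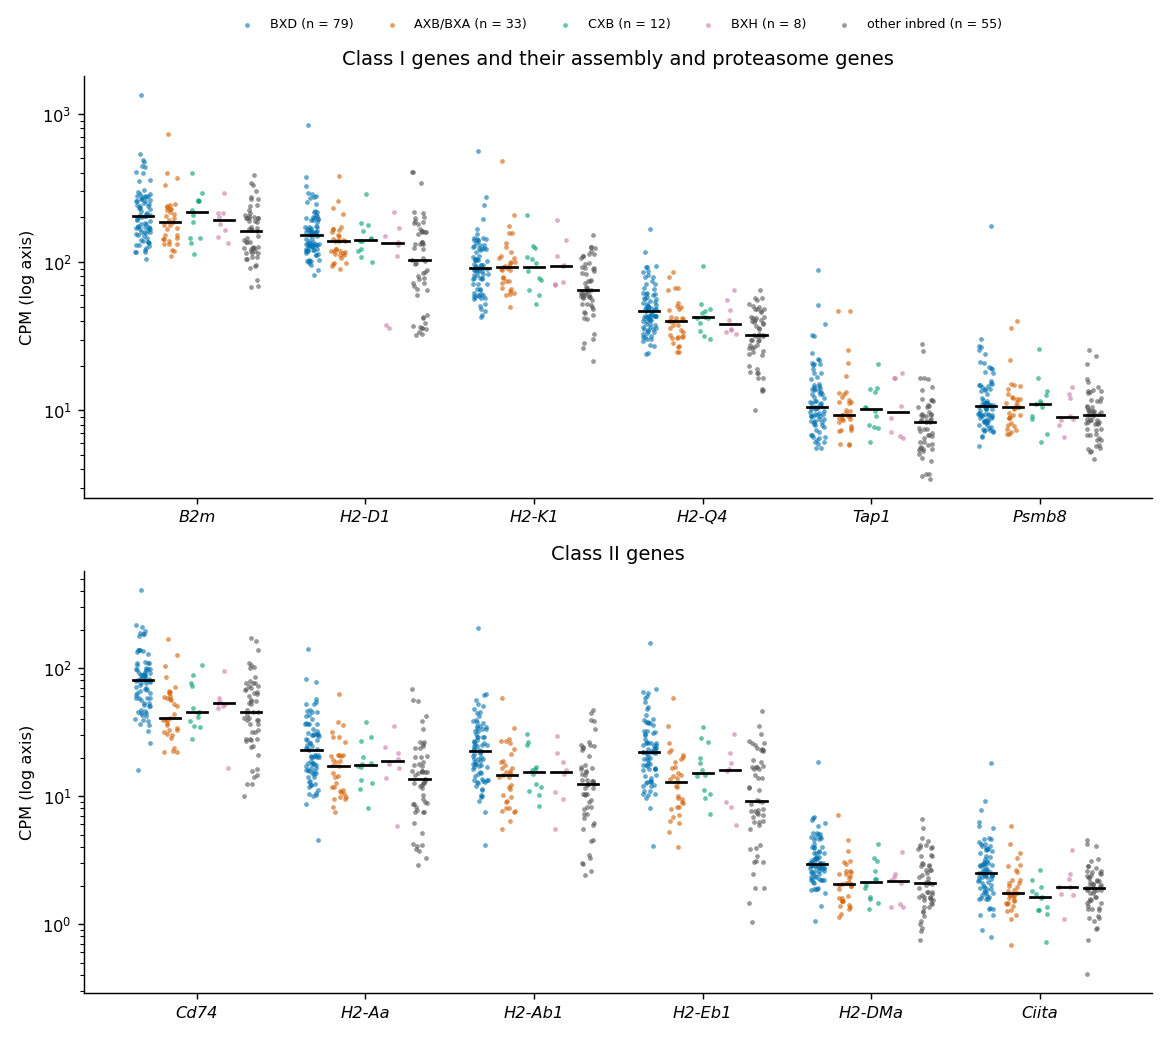
Levels of 6 class I and 6 class II genes in every library (log axis, CPM), by strain family; each point is 1 library and the black bar is the family's median. The BXD73/RwwJ female is the highest point of the genes shown, B2m reached 1335 CPM there, and other inbred strains reach down to 32.2 CPM for H2-D1 and 1.04 CPM for H2-Eb1.

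BXD libraries had the highest median in both classes and stood further above the next family in class II than in class I. Apart from BXD, the medians did not spread more in class II than in class I. These are descriptions by medians, with no test of the difference. The summed level of H2-Aa, H2-Ab1, H2-Eb1 and Cd74 had a median of 150 CPM in BXD (n = 79), 88.1 in AXB/BXA (n = 33), 93.9 in CXB (n = 12), 101.1 in BXH (n = 8) and 84.4 in the other inbred strains (n = 55). All class I members together had medians of 766, 702, 759, 707 and 572 CPM in the same order. Cd74 alone had 80.3 CPM in BXD libraries and 40.4 in AXB/BXA libraries, with ranges of 16.0 to 404 and 22.03 to 170 that overlapped over most of their length. H2-D1 reached lower in other inbred strains than in most RI libraries. AKR/J (32.8 CPM in its male), CBA/J (32.2 and 33.7 CPM) and C3H/HeJ (42.5 and 37.2 CPM) were examples, and the lowest BXD, AXB/BXA or CXB library had 82.4 CPM. Among BXH strains, BXH6/TyJ had 36.02 CPM in the female and 37.5 CPM in the male. Levels between these lay in LP/J, NZW/LacJ and SM/J, so that H2-D1 showed no clean gap.

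C57BL/6J itself lay high for 6 of the 9 class II genes. Among the geometric means of all strains, it ranked 6th from the highest for H2-Aa, 8th for H2-Ab1, 10th for H2-Eb1 and H2-DMb1, and 11th for H2-DMa and Cd74. It ranked 25th for Ciita, 68th for H2-Ea-ps and 83rd for H2-DMb2. Its median rank was 11 over the 9 class II genes and 33.5 over the 24 class I genes. It ranked 12th for H2-K1 and H2-Q7 and 31st for B2m and H2-D1. The reference transcriptome is that of this strain, and the part of matching in these ranks was not tested.

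To ask which members differed between strains, the strain terms of a model with strain and sex were tested with edgeR's quasi-likelihood F test on those 78 strains for which a male and a female were sequenced. All 36 members tested had a Benjamini-Hochberg adjusted p under 0.05, 25 of class I, 10 of class II and H2-Ke6, where 73.8% of the 15942 genes tested passed. The same held for 36 of 36 members among BXD strains, against 50% of all genes. Among AXB/BXA strains, 32 of 36 passed, 23 of 25 in class I and 9 of 10 in class II, against 21.9% of all genes. The 4 that did not pass there were Psmb10 (adjusted p = 0.186), Tapbp (0.0989), H2-Ke6 (0.323) and H2-Ob (0.64). Without BXA11/PgnJ, whose female library stood high (an alternative chosen after seeing the data), 18 of 36 passed among AXB/BXA strains, against 19.1% of all genes. The F statistic was largest for H2-Ea-ps (61.6), H2-T-ps (56.4), H2-Q2 (50.5), H2-Bl (46.2), H2-Q1 (37.9) and H2-K2 (29.8), and smallest for Tapbp (1.95, adjusted p = 0.0029).

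At the median, members spread more between strains than all genes did. The standard deviation of strain means on the log2 scale had a median of 0.79 over the 25 class I genes and 0.81 over the 10 class II genes, where the median over all 15942 genes was 0.24. Across the 78 strains, male and female levels correlated with a median Pearson r of 0.705 in class I, 0.59 in class II and 0.298 over all genes; these are descriptions over strains whose sexes share a genotype. The members most alike between the sexes were H2-Ea-ps (r = 0.973), H2-T-ps (0.96), H2-Q2 (0.954), H2-Bl (0.95) and H2-Q1 (0.923). H2-Eb1 had r = 0.707, H2-Ab1 0.611, H2-Aa 0.587 and H2-K1 0.493. Psmb10, with r = 0.119, and Tapbp, with r = 0.234, were the least alike. For B2m, the strain standard deviation of 0.50 was smaller than that of the male minus female difference within strains, 0.63.

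H2-Ea-ps (ENSMUSG00000036322, chromosome 17, 34341959 to 34344645, minus strand) is the gene of the class II E alpha chain. It is annotated as a polymorphic pseudogene because C57BL/6J carries a deletion at its start. Its level was near 0 in many libraries and well above it in as many others. Over the whole panel, 89 libraries had under 0.2 CPM, 3 had 0.2 to 0.5, 6 had 0.5 to 2, 17 had 2 to 5 and 72 had at least 5 CPM. No RI library lay between 0.2 and 2 CPM. In BXD, 40 libraries reached at most 0.104 CPM and 39 had at least 4.11 CPM (median 15.6), which put 21 of 45 strains near 0. In AXB/BXA, 21 libraries of 13 strains reached at most 0.0768 CPM and 12 libraries of 7 strains lay between 3.38 and 17.97 CPM. In CXB, 4 of 6 strains were near 0 and the other two lay between 5.49 and 19.9 CPM. In BXH, BXH6/TyJ had 6.63 CPM in the male and 7.24 CPM in the female, and the other 5 strains had at most 0.0237 CPM. In each RI strain with both sexes, male and female fell on the same side.

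Among the other inbred strains, 7 of 29 had under 0.2 CPM of H2-Ea-ps. These were 129X1/SvJ, BTBR T<+> tf/J, C57BL/6J, KK/HlJ, LP/J, NOD/ShiLtJ and SJL/J. BUB/BnJ (0.247 CPM in its female), FVB/NJ (0.453 CPM in the male and 1.10 in the female) and SWR/J (1.54 and 0.448 CPM) lay between the groups in every library, as did both MA/MyJ males (0.966 and 1.43 CPM), the SM/J female (1.61 CPM) and the CBA/J female (1.85 CPM), whose other-sex libraries had 2.08 CPM or more. In BUB/BnJ, FVB/NJ and SWR/J the partner chain, H2-Eb1, was low beside the A chains. In FVB/NJ, H2-Eb1 had 1.45 CPM in the male and 4.13 in the female, and H2-Aa had 17.5 and 68.5 CPM. In SWR/J, H2-Eb1 had 3.38 and 1.04 CPM, and H2-Aa 56.2 and 20.1 CPM. The BUB/BnJ female had 1.92 CPM of H2-Eb1 and 20.3 CPM of H2-Aa. In the 7 strains with H2-Ea-ps near 0, H2-Eb1 was near H2-Aa: SJL/J, for example, had 22.6 and 23.6 CPM of H2-Eb1 and 15.4 and 15.5 CPM of H2-Aa. These strains were picked out after their values were seen.

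**Figure D2:**
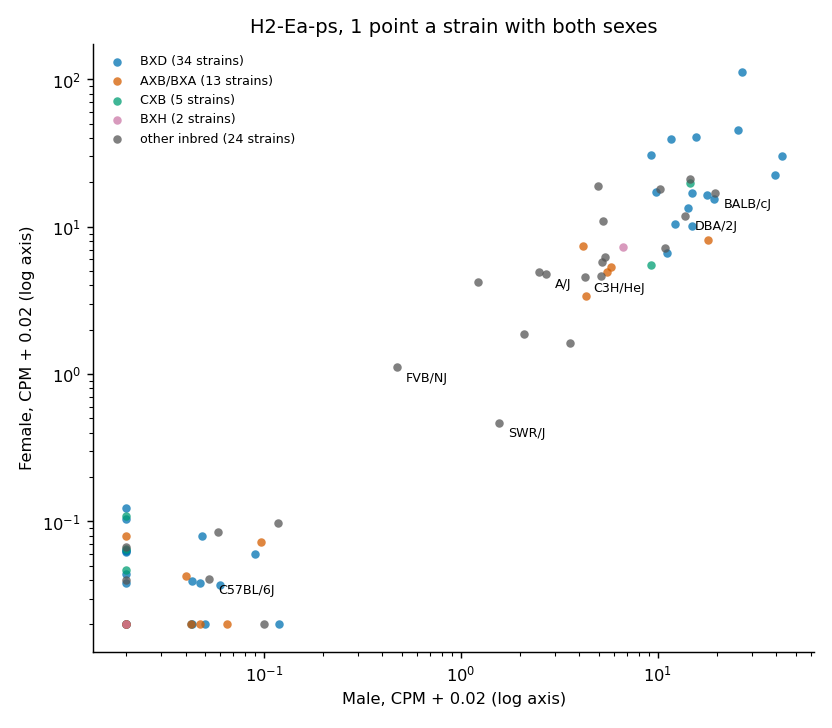
H2-Ea-ps in the male and the female of each strain with both sexes (log axes, CPM with 0.02 added); where a strain and sex had more than 1 library, the mean is plotted. Strains near 0 in one sex were near 0 in the other, and FVB/NJ and SWR/J are among the strains between the clusters.

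The parental strains of the RI families were compared with C57BL/6J as contrasts of the same fit. The 4 contrasts share the 3 C57BL/6J libraries, each has 2 libraries of the other parent, and they are therefore not independent of each other. DBA/2J differed from C57BL/6J in 8 of 36 members, 7 higher and 1 lower, where 10.5% of all genes differed. A/J differed in 12, 7 higher and 5 lower (8.27% of all genes). BALB/cJ differed in 8, 6 higher and 2 lower (9.28%), and C3H/HeJ in 17, 6 higher and 11 lower (9.84%). By class, 7 of 25 class I and 1 of 10 class II genes differed in DBA/2J, 8 and 4 in A/J, 7 and 1 in BALB/cJ, and 10 and 7 in C3H/HeJ. The median log2 fold change over the 36 members was -0.17, -0.26, -0.39 and -0.67 in the same order, beside -0.01 over all genes in each. Scaling by library totals in place of TMM shifted the median of all genes by 0.16 to 0.28 above 0, depending on the contrast, so that fold changes are read relative to the bulk of genes. Under that scaling A/J had 7 members higher and 2 lower (6.2% and 1.87% of all genes), DBA/2J 7 and 0 (13.5% and 2.09%), and C3H/HeJ 6 and 7 (11.5% and 2.03%). In log2(TPM + 1) with limma, A/J had 7 and 2 (6.13% and 1.02% of all genes), DBA/2J 8 and 0 (16.9% and 1.22%), and C3H/HeJ 5 and 4 (15% and 1.17%). In log2(TPM + 0.1), BALB/cJ had 6 and 1 (4.9% and 1.1%) and C3H/HeJ 7 and 4 (13.2% and 1.12%).

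In all, 5 members were near 0 in C57BL/6J and higher in all 4 of the other parents. H2-Ea-ps had 1 or 2 counts in each C57BL/6J library, 0.0205 to 0.0371 CPM. It had 13.8 and 11.9 CPM in DBA/2J, 2.68 and 4.78 in A/J, 19.4 and 16.8 in BALB/cJ, and 4.53 and 4.23 in C3H/HeJ. The ratio of pooled CPM was 433 in DBA/2J (exact 95% interval 168.8 to 1592), 137.9 in A/J (53.5 to 509), 622 in BALB/cJ (242 to 2284) and 152.1 in C3H/HeJ (59 to 560); these intervals cover counting error only. By edgeR's quasi-likelihood test the Benjamini-Hochberg adjusted p was 2.74e-12 or lower in each. H2-Q2, a class I gene with 8 counts in all C57BL/6J libraries, was higher by ratios of 119 (60.1 to 277), 60.6 (30.4 to 141.4), 72.5 (36.5 to 169.1) and 9.93 (4.74 to 24) in the same order of parents. The pseudogenes H2-Bl and H2-T-ps also had 6 counts or fewer in any C57BL/6J library. H2-Bl was 34.7 times as high in DBA/2J (20.8 to 62.6) and 9.99 times in C3H/HeJ (5.81 to 18.4), and H2-T-ps 76.5 times in A/J (38.5 to 178.3) and 7.84 times in C3H/HeJ (3.68 to 19.2). H2-Q1 was 80.7 times as high in C3H/HeJ (40.6 to 188) and 7.03 times in BALB/cJ (3.27 to 17.3). In log2(TPM + 1), limma did not call H2-Q2 (adjusted p = 0.109) and H2-T-ps (0.0756) in C3H/HeJ.

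**Figure D3:**
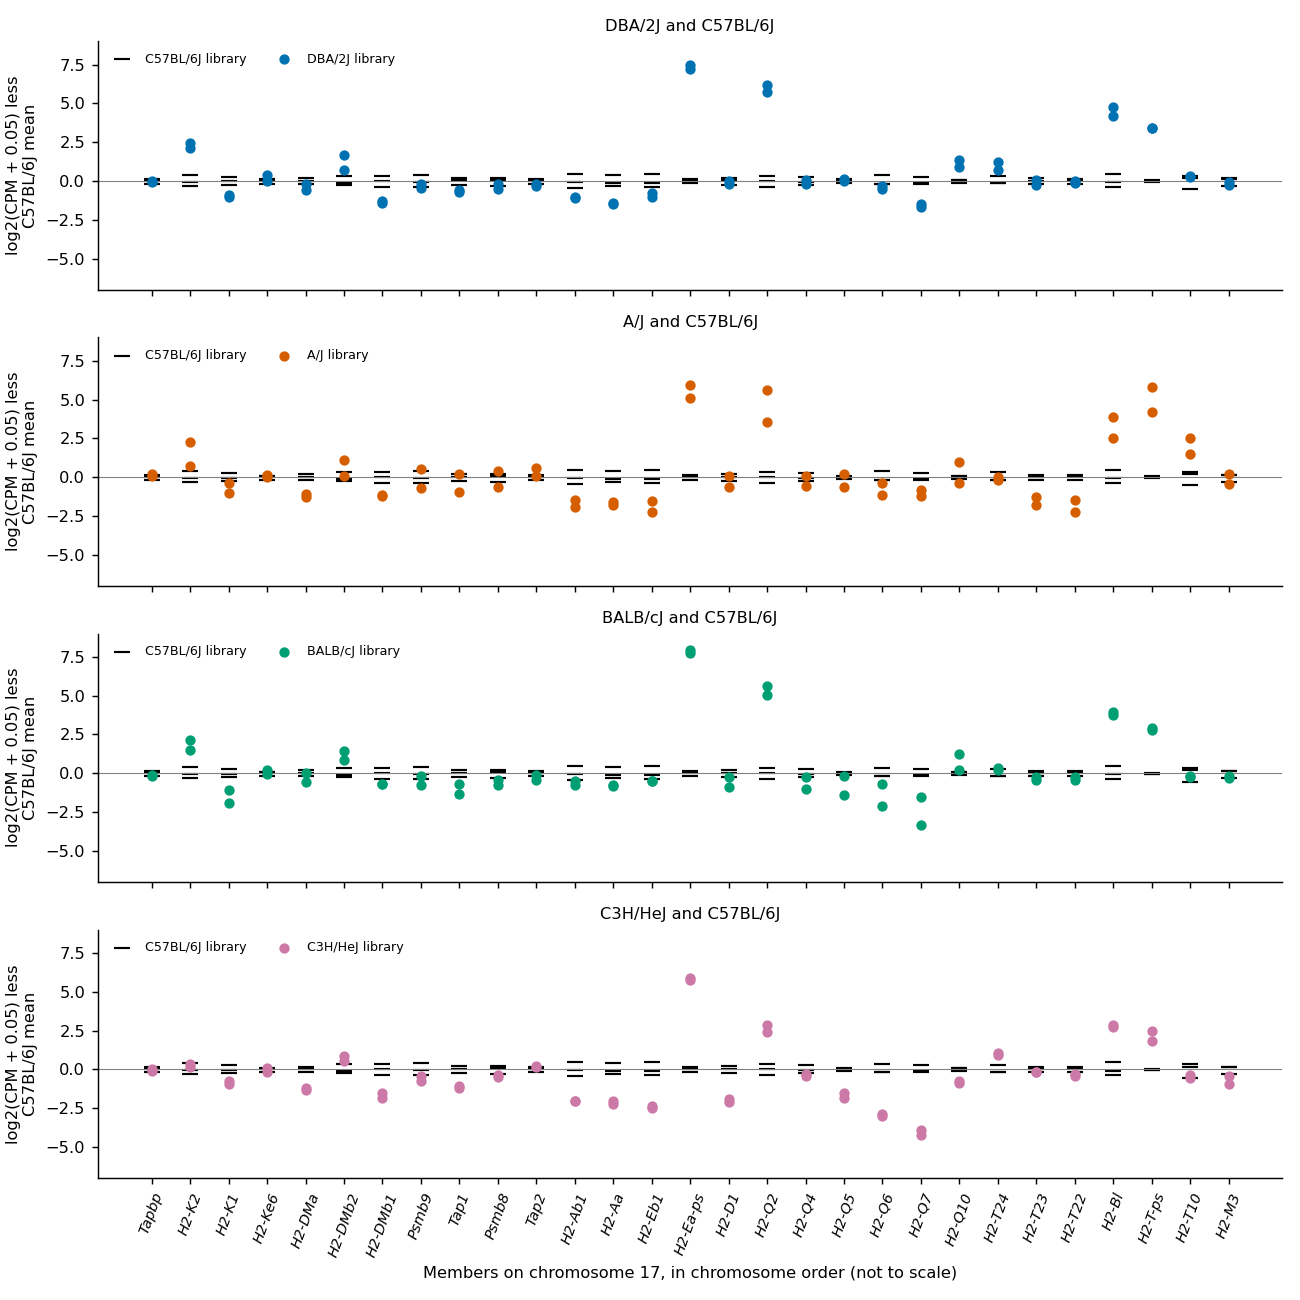
Libraries of the 4 other parental strains (coloured points) and of C57BL/6J (black bars) for the described members on chromosome 17, in chromosome order and not to scale; the vertical axis is log2(CPM + 0.05) less the C57BL/6J mean. H2-Ea-ps, H2-Q2, H2-Bl and H2-T-ps stand above C57BL/6J in all 4 panels, the class II genes from H2-Ab1 to H2-Eb1 lie below it most clearly in A/J and C3H/HeJ, and H2-Q7 lies lowest in C3H/HeJ.

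H2-K2, a transcribed class I pseudogene next to H2-K1, was higher in 3 of the 4 parents. It had 2.63, 3.58 and 2.18 CPM in C57BL/6J. DBA/2J had 12.3 and 15.4 CPM (log2 fold change 2.25, SE 0.36, edgeR adjusted p = 1.17e-06), BALB/cJ 7.66 and 12.3 CPM (1.76, SE 0.36, adjusted p = 0.000196) and A/J 4.51 and 13.1 CPM (1.56, SE 0.37, adjusted p = 0.00141). The A/J call was lost without the A/J female. C3H/HeJ had 3.43 and 3.03 CPM, within the C57BL/6J range. H2-K1 moved the other way in BALB/cJ, with 32.9 and 59.95 CPM against 106.4 to 152.5 in C57BL/6J (log2 fold change -1.55, SE 0.43, adjusted p = 0.00939). That call was lost without the BALB/cJ male or the C57BL/6J male replicate 2 (log2 fold change between -1.88 and -1.28 when any 1 library was left out). Summed, H2-K1 and H2-K2 had 40.6 and 72.3 CPM in BALB/cJ and 109.1 to 154.7 CPM in C57BL/6J, and the groups did not overlap, as held for 36.5% of all genes tested.

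H2-D1, H2-Q6 and H2-Q7 were lower in C3H/HeJ, where H2-Q1 and H2-Q2 were higher and H2-Q4 (log2 fold change -0.42, edgeR adjusted p = 0.544) and H2-Q10 (-0.88, adjusted p = 0.456) did not pass the test. H2-D1 had 131.7, 161.5 and 181.6 CPM in C57BL/6J and 42.5 and 37.2 CPM in C3H/HeJ (log2 fold change -2.03, SE 0.37, edgeR adjusted p = 1.42e-05), a call kept in all 13 alternatives. In A/J and DBA/2J its libraries overlapped those of C57BL/6J. H2-Q7 had 34.4 to 47.7 CPM in C57BL/6J and 2.07 and 2.57 CPM in C3H/HeJ (-4.17, SE 0.59, adjusted p = 2.57e-08). It was also lower in BALB/cJ, with 3.79 CPM in the male and 13.6 in the female (-2.36, adjusted p = 0.000554, lost without the male), and in DBA/2J, with 12.5 and 14.2 CPM (-1.66, adjusted p = 0.0178, lost in 6 of 13 alternatives, among them without either DBA/2J library or without C57BL/6J male replicate 2). H2-Q6 had 24.2 to 35.96 CPM in C57BL/6J and 3.49 and 3.81 CPM in C3H/HeJ (-3.03, SE 0.57, adjusted p = 2.73e-05, lost in TPM). H2-Q5 was lower in C3H/HeJ in counts (-1.79, SE 0.47, adjusted p = 0.00467) and higher in TPM, by 1.57 in log2(TPM + 1) (limma adjusted p = 0.0124), so its direction depended on the unit, and the call in counts was lost without either C3H/HeJ library. All Q genes together had 53.6 and 50.4 CPM in C3H/HeJ and a median of 116.9 CPM in C57BL/6J, without overlap (36.9% of all genes tested did not overlap).

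In A/J, 3 described genes of the T region differed beside H2-Bl and H2-T-ps. H2-T22 had 15.7 to 19.9 CPM in C57BL/6J and 6.50 and 3.71 CPM in A/J (log2 fold change -1.86, SE 0.31, edgeR adjusted p = 3.61e-06). H2-T23, the gene of the Qa-1 molecule seen by inhibitory receptors of natural killer cells, had 21.01 to 27.1 CPM and 10.1 and 6.94 CPM (-1.53, SE 0.34, adjusted p = 0.000605, lost without the A/J female). H2-T10, which shares 47.6% of its 31-base words with H2-T22, was higher, with 5.37 and 11.2 CPM in A/J against 1.28 to 2.40 (2.07, SE 0.30, adjusted p = 1.34e-07). All T genes with H2-Bl summed to 34.7 and 41.3 CPM in A/J and to 48.1 to 59.5 CPM in C57BL/6J. H2-T24 was higher in DBA/2J (18.3 and 26.02 CPM) and C3H/HeJ (23.2 and 20.8 CPM) than in C57BL/6J (9.90 to 13.6 CPM), by 0.95 in both, with adjusted p of 6.84e-05 and 7.48e-05 and in all 13 alternatives.

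Of 10 class II genes, 6 were lower in C3H/HeJ (4.47% of all genes were lower there). In A/J, 3 were lower, H2-Aa, H2-Ab1 and H2-Eb1 (3.91% of all genes), while H2-Ea-ps was higher in both strains. H2-Aa had 33.6, 38.7 and 55.7 CPM in C57BL/6J, 10.3 and 8.72 CPM in C3H/HeJ (log2 fold change -2.21, SE 0.56, edgeR adjusted p = 0.00324) and 13.7 and 12.2 CPM in A/J (-1.76, SE 0.55, adjusted p = 0.0278). H2-Ab1 had 25.2, 33.6 and 47.3 CPM in C57BL/6J, 8.14 and 8.22 CPM in C3H/HeJ (-2.14, adjusted p = 0.00553) and 12.4 and 8.97 CPM in A/J (-1.75, adjusted p = 0.0326). H2-Eb1 had 25.9, 30.4 and 46.5 CPM in C57BL/6J, 6.34 and 5.89 CPM in C3H/HeJ (-2.51, SE 0.57, adjusted p = 0.000793) and 11.2 and 6.89 CPM in A/J (-1.94, adjusted p = 0.0134). None of these libraries overlapped those of C57BL/6J, which held for 37.7% of all genes tested in A/J and 36.9% in C3H/HeJ. The peptide exchange factor genes H2-DMa (-1.29, adjusted p = 0.0343) and H2-DMb1 (-1.79, adjusted p = 0.0309) and Cd74 (-1.50, adjusted p = 0.0468) were called lower in C3H/HeJ only by a small margin. H2-DMb2, which shares words with H2-DMb1, moved the other way there and did not pass (0.70, edgeR adjusted p = 0.576). Of the 6 lower class II calls in C3H/HeJ, H2-Eb1 was kept in all 13 alternatives. The others were lost without either C3H/HeJ library, H2-DMb1, H2-DMa and Cd74 also without C57BL/6J male replicate 2, and H2-DMa and Cd74 also without the C57BL/6J female. The 3 class II calls lower in A/J were lost without the A/J female or C57BL/6J male replicate 2, and those of H2-Aa and H2-Ab1 also without the A/J male. In the class I machinery, Nlrc5 was lower in C3H/HeJ, with 2.50 and 2.59 CPM against 7.53 to 10.3 (-1.92, SE 0.62, adjusted p = 0.0311, lost in 7 of 13 alternatives, among them without either C3H/HeJ library or C57BL/6J male replicate 2).

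Next, each RI library was placed nearer to one parent for every chromosome 17 member whose parental libraries did not overlap and whose parental means differed by at least 1 on the log2 scale, whether or not the member passed the filter on low counts. Of all genes tested, 6.74% met this rule in DBA/2J, 5.98% in A/J, 6.59% in BALB/cJ and 6.73% in C3H/HeJ. There were 13 such members in BXD, and in 376 of 442 pairs of strain and member (85.1%) the male and the female lay nearer the same parent. In AXB/BXA it was 192 of 234 pairs over 18 members (82.1%), in CXB 53 of 75 over 15 members (70.7%) and in BXH 29 of 34 over 17 members (85.3%). The 6 BXD members whose parents differed by at least 2 (H2-K2, H2-Ea-ps, H2-Q1, H2-Q2, H2-Bl and H2-T-ps) agreed between the sexes in 204 of 204 pairs. These 6 genes span the complex from H2-K2 at 33974659 to H2-T-ps at 36109234, and in 44 of 45 BXD strains every library lay nearer the same parent for all 6. The parent was C57BL/6J in 21 strains and DBA/2J in 23. The exception was BXD24/TyJ-Cep290<rd16>/J, whose male lay nearer C57BL/6J for H2-Q1 alone. In AXB/BXA all 20 strains were uniform over H2-Ea-ps, H2-Q1, H2-Q2, H2-Bl, H2-T-ps and H2-T10, 13 nearer C57BL/6J and 7 nearer A/J. H2-M6-ps, under the filter on low counts, also differed by at least 2 between these parents and was left out of that count; its sexes lay nearer the same parent in 6 of 13 strains. Among members that passed the filter, 4 of 6 CXB strains were uniform over 6 and 3 of 6 BXH strains over 10. Left out there were H2-T3 in CXB, with the sexes nearer the same parent in 2 of 5 strains, and H2-M6-ps in BXH, with 1 of 2. The AXB6/PgnJ male, the single library of its strain, lay nearer A/J for H2-K2 and C57BL/6J for all 6.

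Several other members, with a smaller gap between the parents, were placed less evenly in BXD, but H2-Q10, with a gap of 1.13 on the log2 scale, had male and female nearer the same parent in 31 of 34 strains. Male and female lay nearer the same parent in 23 of 34 strains for H2-Aa, 21 for H2-Ab1, 23 for H2-DMb1 and 26 for H2-Q7, whose parental means differed by 1.06 to 1.56 on the log2 scale, beside 34 of 34 for H2-Ea-ps, whose means differed by 7.49. The difference in placement was not tested. In AXB/BXA strains they did so in 10 of 13 strains for H2-Aa, 9 for H2-Eb1 and 13 for H2-T22 and H2-T23. There, 26 of 33 libraries lay nearer A/J for H2-Aa, and 12 of 33 for H2-Ea-ps. Genotypes were not analysed here, so the nearest parent describes levels only.

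**Figure D4:**
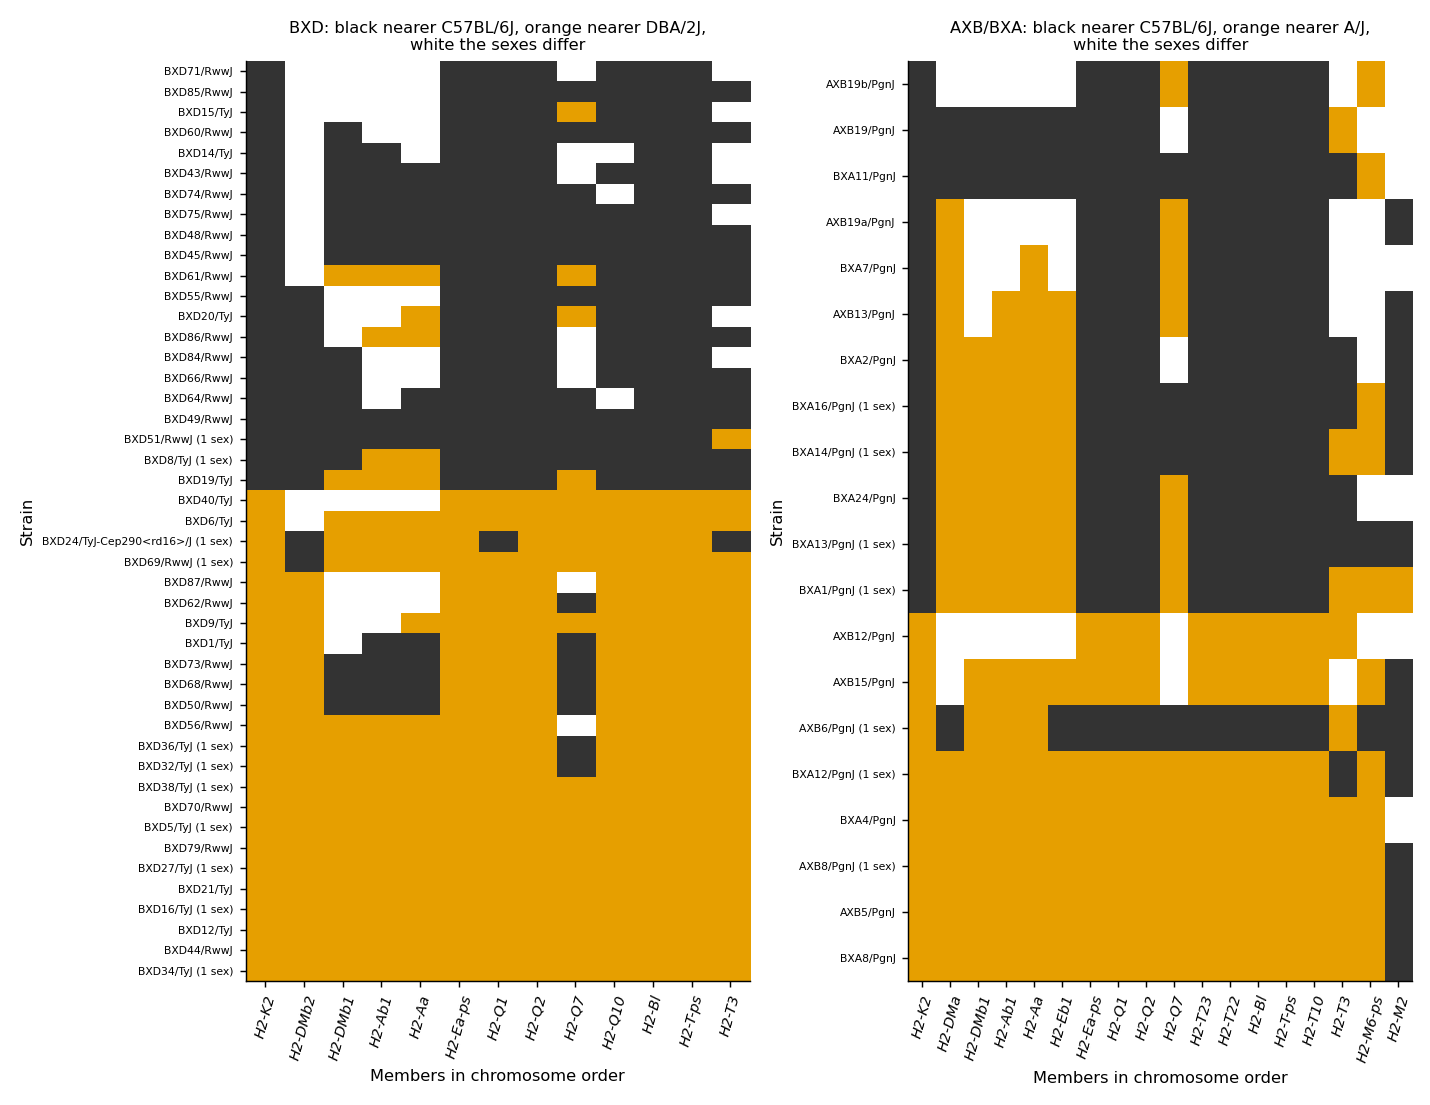
Nearest parent of each BXD strain (left) and AXB/BXA strain (right) for the members whose parents differ, in chromosome order; black is nearer C57BL/6J, orange nearer the other parent and white marks strains whose sexes lie nearer different parents. The columns of H2-Ea-ps, H2-Q2, H2-Bl and H2-T-ps change together down each panel, and white cells are absent there; in BXD the most white cells are in H2-DMb2 and H2-Ab1, where 21 of 34 strains had both sexes nearer the same parent.

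Some members ran closely together across strains. Across the means of all strains with either sex, Spearman's rho was 0.961 between H2-Ab1 and H2-Aa, 0.916 between H2-Ab1 and Cd74, 0.904 between H2-Ab1 and H2-Eb1, 0.894 between H2-DMa and Cd74, and 0.82 between Ciita and Cd74. Psmb9 and Tap1, which lie head to head, had 0.941, Psmb9 and Psmb8 0.901, Nlrc5 and Tap1 0.874, and B2m and H2-D1 0.891. Other pairs of the same class did not run together, with -0.0097 for H2-K2 and H2-K1, 0.027 for H2-DMb2 and H2-DMb1, 0.036 for H2-Ea-ps and H2-Ab1, and -0.246 for H2-Q2 and H2-Q7. Across the classes, rho was 0.862 for H2-Ea-ps and H2-Q2, 0.736 for Tap1 and H2-Ab1, 0.62 for B2m and Cd74, and 0.171 for B2m and H2-Ea-ps. The points share libraries and, in the RI families, parental genomes, so these values describe this panel.

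Markers of immune cells moved with the members to differing degrees, and their part in these levels was not tested. Over all libraries, the mean log2 level of the class II genes had a Spearman correlation of 0.548 with that of 10 macrophage markers, 0.603 with 7 dendritic cell markers, 0.304 with 6 B cell markers and 0.356 with 6 T cell markers. For the class I assembly genes, the values were 0.299, 0.401, 0.132 and 0.405. Endothelial markers had 0.268 with class II and 0.296 with class I, and adipose markers 0.142 and -0.0019. Cardiomyocyte markers went the other way, with -0.268 and -0.1255. With 23 interferon response genes the class I assembly genes had 0.859, where class II had 0.591. Summed levels ran from 42.1 to 503 CPM for the macrophage list, 13.7 to 34.7 for dendritic cells, 1.24 to 32.8 for B cells and 1.45 to 13.5 for T cells. No list had a marker at 0 in every library, and 4 of 5 thymocyte markers had a median under 0.1 CPM. All 23 interferon response genes differed between strains (73.8% of all genes), 23 of 23 among BXD (50%) and 12 of 23 among AXB/BXA strains (21.9%).

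The BXD73/RwwJ female stood above the other libraries, and the BXA11/PgnJ female came second in the summed level of all class I members (2306 CPM). The BXD73/RwwJ female had the highest level of 26 of the 34 described members, 17 of 24 in class I and all 9 in class II. Psmb8 stood there at 17.6 times its median over all libraries (10.01 CPM), and the male of the strain had 17.9 CPM. B2m had 1335 CPM (7.11 times the median) and 295 CPM in the male, H2-Ab1 206 CPM (12.6 times) and 32.5 CPM in the male, and Cd74 404 CPM and 138.2 CPM in the male. This library also had the highest T cell marker sum of all (13.5 CPM, median 2.78), the second highest dendritic cell sum (26.5 CPM, median 19.5) and the fourth highest macrophage sum (365 CPM, median 212). Within these lists, C1qa, C1qb, C1qc, Cx3cr1 and 5 of 6 T cell markers were at their highest here. The macrophage genes Cd163 (4.66 CPM, median 12.1) and Mrc1 (9.11, median 20.5) lay below their medians. Of the dendritic cell markers, Zbtb46 (13.35 CPM, median 14.84) and Cd209a (0.138, median 0.233) lay below their medians. Clec9a (5.77 CPM, median 2.49), Itgax (4.66, median 0.673), Xcr1, Ccr7 and Flt3 lay above theirs. Genes of cardiomyocytes also stood apart, with the lowest Ryr2 of all libraries (537.5 CPM, median 2111) and the highest Myl2 (12814 CPM, median 4433). The endothelial gene Egfl7 was at its highest here (202.3 CPM, median 61.5), and the endothelial genes Tie1 and Pecam1 also lay above their medians. The endothelial genes Cdh5 (109.1, median 171.5), Kdr (130.7, median 168.1) and Tek (38.9, median 50.6) lay below theirs. The macrophage gene Adgre1 (3.04, median 5.26) was also below its median. The adipose marker sum was the fifth highest (912 CPM, median 317), and most of it was Fabp4 (881.5 CPM, median 307.6). The other adipose markers were also above their medians but far lower, with Cfd next at 13.5 CPM (median 1.71). The interferon response list was at its highest. The part of these differences in the member levels was not tested. The BXA11/PgnJ female had 737 CPM of B2m and 483 CPM of H2-K1, the second highest values of both, with 333 and 209 CPM in the male. Its T cell and macrophage sums, 2.59 and 197 CPM, lay below the medians, and its dendritic cell sum, 24.5 CPM, was the fourth highest. H2-Ea-ps was higher in the first library than in any other and had no count in the second.

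**Figure D5:**
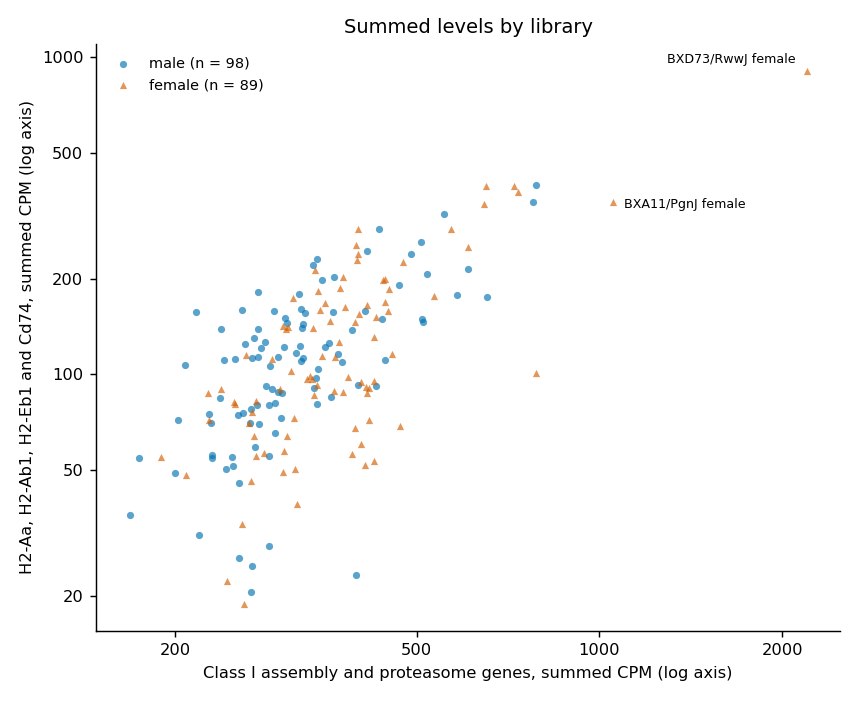
Summed level of 8 class I assembly and proteasome genes (B2m, Tap1, Tap2, Tapbp, Psmb8, Psmb9, Psmb10 and Nlrc5) against that of H2-Aa, H2-Ab1, H2-Eb1 and Cd74 in each library (log axes, CPM), males as circles and females as triangles. The BXD73/RwwJ female lies at 2193 and 908 CPM, far above the medians of 327 and 111.3 CPM.

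Of 25 class I genes, 7 were higher in females. Sex was tested over all libraries by edgeR's quasi-likelihood test with no strain term, so the pairing of the sexes within strains was not used. By this test, 7 of 36 members were higher in females (12% of all genes) and 0 in males (13.3% of all genes). The count in males was also 0 at an unadjusted p under 0.05, with DESeq2 and with limma. All 7 were of class I. B2m had a median of 162.6 CPM in males (68.1 to 536) and 208 CPM in females (75.5 to 1335), a log2 fold change of -0.36 for males against females (adjusted p = 0.00123), and the female had more of it in 58 of 78 strains. Psmb9 (-0.41, adjusted p = 0.00164, 56 of 78 strains) and Psmb8 (-0.40, adjusted p = 0.00204, 53 strains) followed, and Tap1 (-0.30, adjusted p = 0.0392), H2-K1 (-0.26, adjusted p = 0.0415), H2-M3 (-0.20, adjusted p = 0.0266) and Tapbp (-0.10, adjusted p = 0.0088) were closer to the threshold or smaller in size. Male and female ranges overlapped for all of them. The count was 4 with the number in the title as a covariate (10.4% of all genes higher in females) and 17 with library totals (34.8%), which put the median log2 fold change of all genes at -0.09.

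The female excess in class I depended on single libraries and on the fit. Without the BXD73/RwwJ female, 3 of the 7 kept an adjusted p under 0.05, B2m, Psmb9 and Tapbp (12.5% of all genes were higher in females there), and without the BXA11/PgnJ female 5 did (12.2%). With strain as a block, on the strains with both sexes, 23 members were higher in females, 22 of class I and 1 of class II, beside 15.3% of all genes. In the test with no strain term, 0 of 10 class II genes differed by sex (1, Ciita, at an unadjusted p under 0.05, and 0 with DESeq2 and 0 with limma). Cd74 had medians of 58.5 CPM in males and 57.6 in females, and the female was higher in 35 of 78 strains. H2-Aa had 17.4 and 18.04 CPM, and the female was higher in 43. That the sexes differ more in class I than in class II was not tested. Of the interferon response genes, 16 of 23 were higher in females (12% of all genes) and 0 in males (13.3%), and 12 of 23 were higher in females without the BXD73/RwwJ female (12.5% of all genes).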

How the data were processed

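Heart RNA was sequenced in 187 libraries, and the authors quantified it with kallisto 0.46 against mouse transcripts (GRCm38.p6). The deposited tables hold estimated counts per gene, of which 34.2% were not whole, and TPM. GENCODE M21 gave symbols and coordinates. The members and gene lists were chosen with earlier results of these data known. Members given by value were those listed by symbol and H2- genes averaging 1 CPM or more, with H2-Ea-ps. Counts were rounded, filtered with filterByExpr by sex (15942 genes kept), scaled by TMM and tested with edgeR 4.0.16 (quasi-likelihood F test, legacy = FALSE, prior count 2, Benjamini-Hochberg over all genes, threshold 0.05) in R 4.3.3. Strain contrasts came from a fit with strain and sex, and sex was tested with no covariate. Alternatives were library totals, RLE scaling, no filter, limma 3.58.1 on log2(TPM + 1) and log2(TPM + 0.1), DESeq2 1.42.0 for sex, the number in the sample title as a covariate, strain as a block and leaving out libraries. Fits were tested on simulated data. Descriptions used Python 3.11.15. Intervals cover counting error only. Depth was 28.99 to 80.44 M estimated counts per library.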

Additional observations from a re-analysis of the deposited data

Results flagged for a closer look

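The 34 described members were each tested in 3 groups of 5 or 6 libraries (BXH males, CXB males and CXB females) for a library far from the others (Dixon's test at 95%). Each group holds several strains, which may carry different parental alleles, and many members run together across strains. The tests are therefore not independent, and their number cannot be set against a chance rate. Positive results came from 15 of these tests. Of these, 4 came from the BXH6/TyJ male, with H2-D1 at 37.5 CPM (131 to 218 in the other BXH males), H2-Q7 at 2.24 CPM (21.8 to 50.5), H2-Ea-ps at 6.63 CPM (at most 0.0237) and H2-Ke6 at 41.2 CPM (29.2 to 31.7). The BXH8/TyJ male had Cd74 at 95.7 CPM (48.6 to 58.1), and the CXB4/ByJ female H2-Ke6 at 56.98 CPM (26.8 to 34.4). The other 9 came from the CXB7/ByJ male. It had 287 CPM of H2-D1 (100.9 to 137.7 in the other CXB males), 38.1 CPM of H2-Aa (11.4 to 17.0), 50.1 CPM of H2-T23 (15.6 to 23.6) and 4.34 CPM of H2-M3 (2.33 to 2.94). Its machinery genes were also high, with 14.2 CPM of Psmb9 (4.02 to 6.41), 54.95 CPM of Psmb10 (20.4 to 28.1), 20.4 CPM of Tap1 (6.10 to 9.11), 39.6 CPM of Tap2 (18.7 to 23.2) and 90.9 CPM of Tapbp (54.8 to 64.9).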

How the results depend on the processing

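Over 8 alternatives, 25 to 28 class I and 10 to 12 class II members differed between strains, the higher counts with more genes tested. Among AXB/BXA strains the count was 18 without BXA11/PgnJ (19.1% of all genes). Leaving out 1 library gave 7 to 13 members for A/J, the fewest without its female, and 10 to 17 for C3H/HeJ, the fewest without either of its libraries. C3H/HeJ had 9 members in log2(TPM + 1) and 11 in log2(TPM + 0.1), where H2-Q5 reversed to 1.57 and 1.68. Members higher in females numbered 17 with library totals (34.8% of all genes), 15 and 14 in log2(TPM + 1) and log2(TPM + 0.1) (42.9% and 42.1%), 23 when strain entered as a replicate block (15.3%), 4 once the number in the title was a covariate (10.4%), and 3 without the BXD73/RwwJ female (12.5%). The first 3 of these settings moved the median log2 fold change of all genes toward females, to -0.09, -0.08 and -0.12. The share of strain and member pairs with both sexes nearer the same parent rose to 100.0% in BXD, 92.3% in AXB/BXA and 88.6% in CXB with parents at least 2 apart, and to 90.1%, 89.6% and 81.8% in log2(TPM + 0.1). In BXH it was 86.4% and 81.3%, against 85.3%. The cause of these changes was not tested. Of 533 parental fold changes recomputed, 457 kept their call, 74 lost it and 2 reversed. For sex, 58 of 70 kept it and 12 lost it. Each parental contrast rests on 5 libraries, and reads of other alleles may be lost against the C57BL/6J transcripts.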
